A study of Mus musculus with 12 samples.

Results

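Naive pluripotency transcription factors were followed through the differentiation of male mouse embryonic stem (ES) cells with and without the chromatin gene Smchd1. The set held 10 genes chosen by name (Nanog, Esrrb, Klf2, Klf4, Klf5, Tfcp2l1, Zfp42, Prdm14, Tbx3 and Nr5a2), each found once among the 25965 genes of the expression table, and 9 of them were among the 14063 genes tested. Prdm14 was left out of the tests by the filter on low values and is described by its reads. Because a member could pass that filter through the day at which it was high, the counts below are over 9 genes and not over the whole set.

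The 12 RNA-seq libraries came from C57BL/6 ES lines, each derived from an individual blastocyst in 2i+LIF medium. Each line was divided into an untransduced portion, Smchd1 fl/fl, and a portion transduced with MSCV-Cre-puro and selected with puromycin, Smchd1 del/del. Both were weaned into serum+LIF and then directed towards neuromesodermal progenitors, first by LIF withdrawal and Fgf2, then with a Gsk3 inhibitor from 2 days on and Gdf11 after another 4 days. Libraries of line 1 and line 3 stood for each genotype at day 1, day 5 and day 8, which made 6 groups of 2. The samples named day 1 are also described as undifferentiated ES cells, and the protocol calls the first sampling day 0, so day 1 is used here for that ES cell stage. The controls were neither transduced nor selected, so the deletion and these treatments cannot be told apart. With 2 lines in a group, p-values measure the spread between these libraries. These are bulk libraries, in which fewer cells of a type and less RNA per cell cannot be told apart.

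The naive state is the ground state of the early epiblast, and the factors studied here hold it in culture by binding each other's genes together with Pou5f1 and Sox2. LIF acts through Stat3 on Klf4 and Tfcp2l1, Gsk3 inhibition lifts the repression that Tcf7l1 exerts on Esrrb and Tfcp2l1, and FGF signalling through ERK pushes cells out of the state. Several of the factors also work outside ES cells, among them Klf5 and Esrrb in trophoblast, Nanog in the posterior epiblast and germ cells, and Tbx3 in mesoderm and extraembryonic endoderm.

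Sequence upstream of the start site is shown for 4 members that moved in different ways. Nanog and Zfp42 share 7 bases of the octamer. Klf2 and Klf4 are 2 zinc finger factors of a single family that went in opposite directions on differentiation. Each run is the 250 bases before the start, 5′ to 3′ on the gene's strand, from RefSeq, build GRCm38.p6. RefSeq promoter entries were matched for 7 of the 10 members, with 10 windows in all. Motifs were searched on both strands of the full RefSeq windows, 250 bases before to 50 after the start. Capitals mark exact matches, on either strand, to TTTGCAT (the octamer bound by Pou5f1), GGGCGGG (the GC box of Sp and Klf factors) and GGGTGTG (a Klf site).
Nanog, chr6:122707239-122707488, plus strand: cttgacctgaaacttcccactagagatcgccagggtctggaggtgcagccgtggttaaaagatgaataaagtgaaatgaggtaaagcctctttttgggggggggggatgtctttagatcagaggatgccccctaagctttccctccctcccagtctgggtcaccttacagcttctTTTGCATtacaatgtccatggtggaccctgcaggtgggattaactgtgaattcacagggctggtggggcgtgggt
Zfp42, chr8:43307010-43307259, minus strand: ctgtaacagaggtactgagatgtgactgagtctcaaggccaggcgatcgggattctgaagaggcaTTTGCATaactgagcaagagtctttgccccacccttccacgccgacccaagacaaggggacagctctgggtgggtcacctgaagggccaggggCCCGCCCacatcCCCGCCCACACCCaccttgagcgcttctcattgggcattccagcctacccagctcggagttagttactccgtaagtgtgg
Klf2, chr8:72318812-72319061, plus strand: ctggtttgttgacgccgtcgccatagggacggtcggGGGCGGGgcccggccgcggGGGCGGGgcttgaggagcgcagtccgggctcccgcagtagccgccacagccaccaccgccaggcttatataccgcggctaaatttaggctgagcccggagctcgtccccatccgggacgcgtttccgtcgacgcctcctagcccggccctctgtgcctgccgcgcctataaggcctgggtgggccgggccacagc
Klf4, chr4:55532476-55532725, minus strand: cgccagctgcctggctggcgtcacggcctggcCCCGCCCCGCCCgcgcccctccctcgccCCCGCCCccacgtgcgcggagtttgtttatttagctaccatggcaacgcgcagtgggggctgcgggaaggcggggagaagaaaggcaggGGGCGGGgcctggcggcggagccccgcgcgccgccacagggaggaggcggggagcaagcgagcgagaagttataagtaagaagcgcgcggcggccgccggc
Counted from the start site of the window shown, the octamer core lay at -75 to -69 in Nanog and at -185 to -179 in Zfp42. From a second RefSeq start of Nanog the same core lay at -151 to -145. Of the 32851 promoters in the RefSeq table, 4.63% held an octamer core. Klf2 held 2 GC boxes and Klf4 held 4, of which a pair overlapped, while 25.6% of all promoters held at least 1. Zfp42 held 2 GC boxes and, overlapping the second by a base, a Klf site, a motif found in 7.95% of promoters. Among the windows not shown, Esrrb held a Klf site at -221 to -215. AAGGTCA (the half-site of Esrrb and Nr5a2), GGTGTGA (a T-box half-site) and AAGATGG (the core shared by Zfp42 and Yy1), also searched on both strands, matched no member's window, against 4.72%, 3.98% and 6.34% of all promoters. A match describes letters only, and none of these windows was tested for binding.

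Gene reads per library ran from 1.51 to 8.67 M (mega), and the fl/fl day 8 library of line 3 was the shallowest. Spearman's correlation between the 2 lines over genes, which are not replicates, was 0.947 for del/del day 5 and 0.948 for fl/fl day 8, against 0.983 to 0.993 for the other groups, so results are also given without these libraries where they changed. The deposited values divide by all reads of a library and not only those in genes. On that scale the median tested gene moved between genotypes by 0.15, -0.40 and 0.90 log2 units at days 1, 5 and 8, by -0.42 and -0.88 from day 1 to day 5 in fl/fl and del/del, and by -0.55 and 0.69 from day 5 to day 8. Levels below are therefore log2 RPM (reads per M reads) centred per library on the median gene, called relative levels, and a change is called at an adjusted p under 0.05. Smchd1 itself had relative levels of 5.23 and 5.36 in fl/fl (line 1, then line 3, as throughout) and 2.32 and 2.57 in del/del at day 1. At day 5 they were 4.05 and 4.52 against 2.05 and 2.38, and at day 8 4.6 and 3.99 against 1.92 and 1.82. Smchd1 was thus lower in del/del by 7.18-fold, 4.21-fold and 5.38-fold at the 3 days (adjusted p = 0.00187, 0.043 and 0.00229). Marker sums are in RPM on the same centred scale. Over 10 ES cell markers outside the set they spanned 365 to 418 in the ES cells. At the second sampling they spanned 125 to 145 and at the last 56.5 to 111. The sum over 14 neuromesodermal markers spanned 45.8 to 55.7, 127 to 222 and 51.6 to 62.3 RPM at the successive samplings.

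In the ES cells of day 1 the members spanned a wide range of abundance. Scaled per kilobase of exon, Klf2 and Nanog were the highest in fl/fl, at 11.9 ± 0.970 and 11.9 ± 1.87 RPM per kb (SD, n = 2). Zfp42 followed at 6.35 ± 0.250 and Esrrb at 4.63 ± 0.219 RPM per kb, each apart from its neighbours by more than their spread. Klf5, Tfcp2l1 and Klf4 lay at 1.20 ± 0.211, 1.19 ± 0.120 and 1.08 ± 0.0507 RPM per kb and did not differ beyond their spread. Nr5a2 had 0.797 ± 0.00259 RPM per kb, Prdm14 0.398 ± 0.170 and Tbx3 0.274 ± 0.0478, and the last pair overlapped. At day 8 the levels lay closer together in fl/fl, where the first 7 members, from Zfp42 at 3.07 ± 1.49 to Esrrb at 1.42 ± 0.433 RPM per kb, each lay within the spread of the next. In del/del at day 8, Nanog at 3.38 ± 0.445 and Tbx3 at 3.06 ± 0.382 RPM per kb stood above Klf4, the next at 1.62 ± 0.464, and Nr5a2 was the lowest detected member at 0.0614 ± 0.0144.

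**Figure D1:**
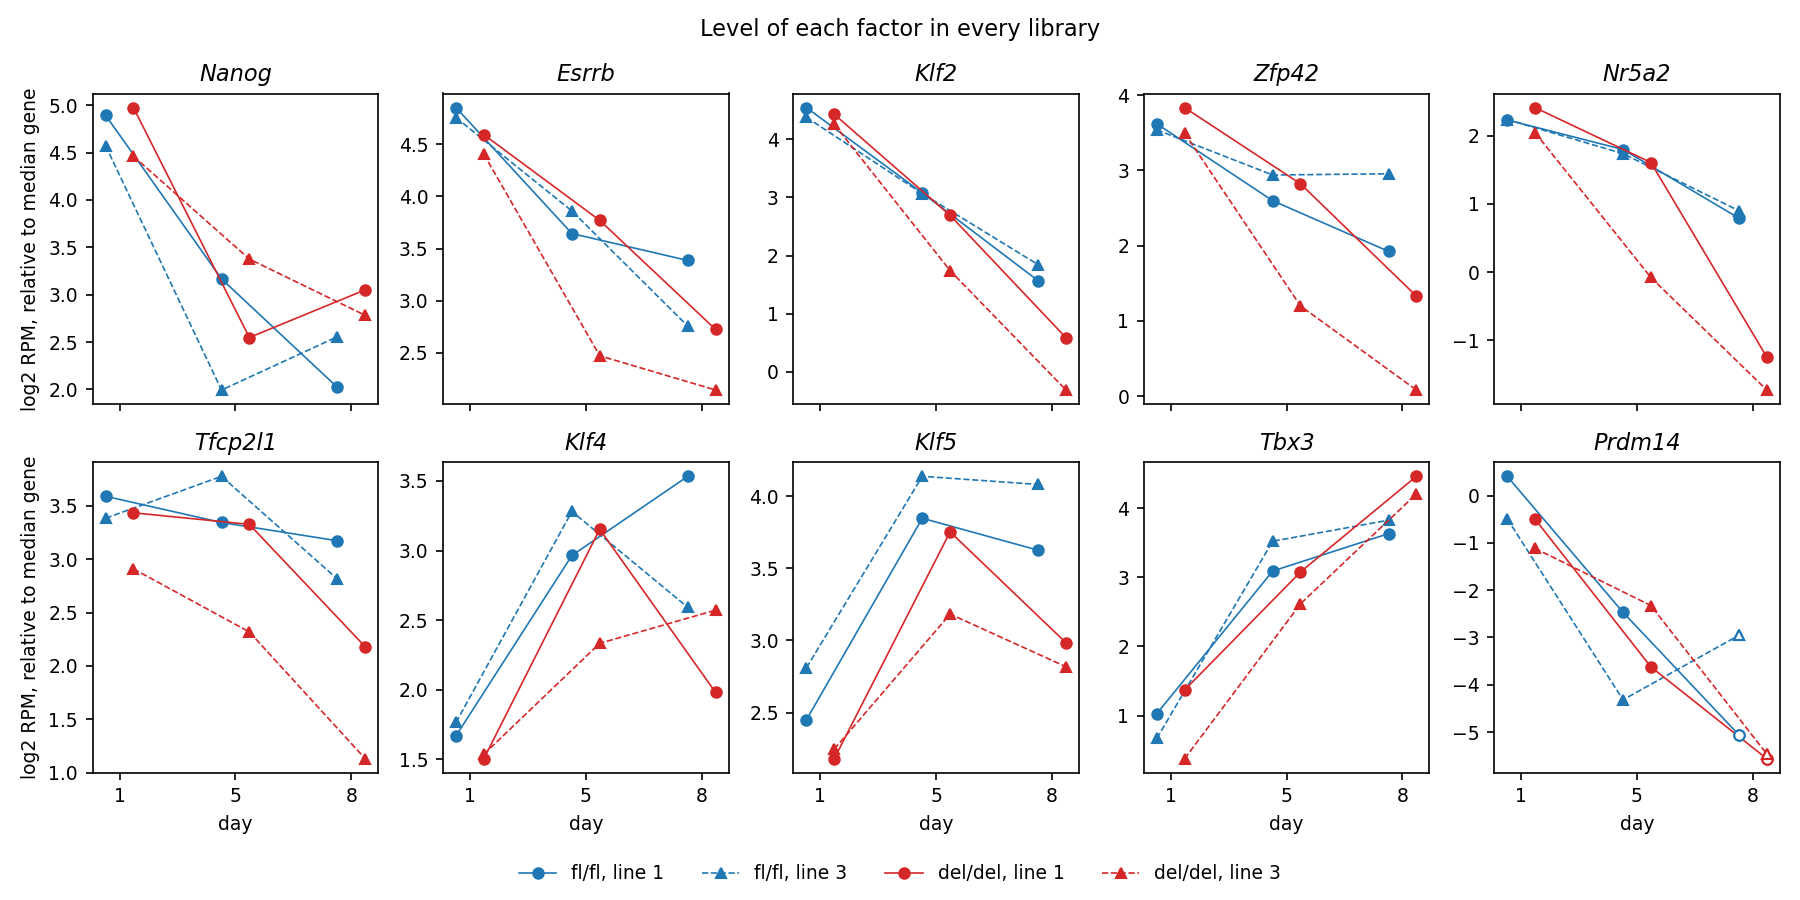
Relative level (log2 RPM, centred on the median gene) of each member at day 1, day 5 and day 8 in every library, with a colour for each genotype and a marker for each ES line; the 3 days are evenly spaced, each panel has its own vertical scale, and open markers are libraries with 0 reads, whose position is set by the 0.9 reads entered for them. Nanog, Esrrb and Klf2 run downwards from day 1 to day 5, Klf4, Klf5 and Tbx3 upwards, and Prdm14 reaches 0 reads at day 8.

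The move from ES cells to day 5 divided the set. In fl/fl, 3 of 9 tested members fell (Nanog, Klf2 and Esrrb), 3 rose (Tbx3, Klf4 and Klf5) and 3 were not called, where 17.9% of all tested genes fell and 23% rose. In del/del, 5 of 9 fell (the same 3 with Zfp42 and Nr5a2) and the same 3 rose, against 18.3% and 21.2% of all tested genes. The difference between the genotypes in this change was tested for each member and none was called by limma (adjusted p 0.962 to 0.977, none with an unadjusted p under 0.05) or voom, nor was any other gene (0% in each direction).

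Nanog (chromosome 6, 122707489 to 122714633, plus strand, mm10), the homeodomain factor that stabilises self-renewal, had relative levels of 4.89 and 4.57 at day 1 and 3.17 and 1.99 at day 5 in fl/fl. In del/del it went from 4.97 and 4.46 to 2.55 and 3.38. All day 5 libraries lay below all day 1 libraries. Nanog fell by 2.15 ± 0.39 log2 units (SE), or 4.44-fold, in fl/fl (adjusted p = 0.00134) and by 1.76 ± 0.39 in del/del (adjusted p = 0.00442).

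Esrrb (chromosome 12, 86361117 to 86521628, plus strand), an orphan nuclear receptor downstream of Gsk3 inhibition, went from 4.85 and 4.76 to 3.64 and 3.86 in fl/fl and from 4.59 and 4.41 to 3.77 and 2.47 in del/del. The days did not overlap in either genotype, although the 2 del/del lines were far apart at day 5. Esrrb fell by 1.05 ± 0.37 in fl/fl (adjusted p = 0.0396) and by 1.38 ± 0.37 in del/del (adjusted p = 0.0119).

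Klf2 (chromosome 8, 72319033 to 72321656, plus strand), a zinc finger factor that acts beside Klf4 and Klf5 in ES cells and is otherwise known in endothelium, went from 4.54 and 4.38 to 3.08 and 3.06 in fl/fl. In del/del it went from 4.43 and 4.25 to 2.69 and 1.74. Again no day 5 library reached the day 1 levels. Klf2 fell by 1.39 ± 0.34 in fl/fl (2.62-fold, adjusted p = 0.00762) and by 2.13 ± 0.34 in del/del (4.36-fold, adjusted p = 0.000662).

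Klf4 and Klf5, the other members of the family, moved the other way. Klf4 (chromosome 4, 55527143 to 55532466, minus strand), the LIF-responsive member, had 1.67 and 1.76 at day 1 and 2.96 and 3.28 at day 5 in fl/fl, and 1.5 and 1.54 against 3.15 and 2.33 in del/del. It rose by 1.41 ± 0.36 (adjusted p = 0.00942) and 1.22 ± 0.36 (adjusted p = 0.019). Klf5 (chromosome 14, 99298691 to 99313405, plus strand), also a factor of trophectoderm and gut epithelium, had 2.45 and 2.81 at day 1 and 3.85 and 4.14 at day 5 in fl/fl, and 2.18 and 2.25 against 3.75 and 3.18 in del/del. It rose by 1.36 ± 0.24 in fl/fl (2.57-fold, adjusted p = 0.00123) and 1.25 ± 0.24 in del/del (adjusted p = 0.00207). The days did not overlap for either gene.

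Tbx3 (chromosome 5, 119670669 to 119684724, plus strand), a T-box repressor, showed the largest rise of the 9 tested members on this scale. Its relative levels were 1.03 and 0.67 at day 1 and 3.09 and 3.52 at day 5 in fl/fl, and 1.37 and 0.37 against 3.08 and 2.62 in del/del. Tbx3 rose by 2.46 ± 0.32 in fl/fl (5.50-fold, adjusted p = 0.000201) and 1.98 ± 0.32 in del/del (3.93-fold, adjusted p = 0.000782). A small stretch of its exons is shared with the antisense gene Tbx3os1, whose reads cannot be separated here.

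On the deposited scale the directions of these 6 members from day 1 to day 5 were kept, but fewer were called. In fl/fl, Tbx3, Nanog and Klf2 were called there, and Klf4 at 1.03, Klf5 at 0.99 and Esrrb at -1.43 were not (adjusted p = 0.212, 0.14 and 0.0713). In del/del the 3 rises were lost, with Klf4 at 0.32 (adjusted p = 0.661), Klf5 at 0.35 (adjusted p = 0.545) and Tbx3 at 1.07 (adjusted p = 0.0966). The rises are thus statements relative to the median gene, which dropped on that scale.

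Tfcp2l1, Zfp42 and Nr5a2 were not called in the controls. Tfcp2l1 (chromosome 1, 118627945 to 118685167, plus strand), a CP2 family factor downstream of LIF and Gsk3 inhibition, had 3.59 and 3.38 at day 1 and 3.34 and 3.78 at day 5 in fl/fl, where the days overlapped. Its difference was 0.07 ± 0.39 in fl/fl (adjusted p = 0.897), a value that changes sign on the deposited scale (-0.30), and -0.35 ± 0.39 in del/del (adjusted p = 0.504).

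Zfp42 (chromosome 8, 43295068 to 43307009, minus strand), the zinc finger gene also known as Rex1 and used as a marker of the naive state, went from 3.62 and 3.54 to 2.60 and 2.94 in fl/fl and from 3.83 and 3.49 to 2.82 and 1.20 in del/del. Its difference of -0.81 ± 0.53 was not called in fl/fl (adjusted p = 0.249), and it fell by 1.65 ± 0.53 in del/del (adjusted p = 0.0299). Nr5a2 (chromosome 1, 136843584 to 136960427, minus strand), an orphan nuclear receptor that activates Pou5f1, had 2.23 and 2.24 at day 1 and 1.80 and 1.74 at day 5 in fl/fl, and 2.41 and 2.05 against 1.61 and -0.08 in del/del. Nr5a2 was -0.47 ± 0.47 in fl/fl (adjusted p = 0.456) and fell by 1.46 ± 0.47 in del/del (adjusted p = 0.0298). For both genes the del/del day 5 library of line 3 was the low one, and when it was left out Zfp42, Nr5a2 and Esrrb were not called in del/del, where 5 calls were made (Klf4, Tbx3, Nanog, Klf2 and Klf5).

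Other single libraries also set the counts of day 5 against day 1. The fall of Esrrb in fl/fl was lost when any of the 4 day 1 libraries or either fl/fl library of day 5 was left out, and the rise of Klf4 in fl/fl without line 1 of fl/fl at day 1 or line 3 of fl/fl at day 5. Leaving out line 1 of fl/fl at day 1 gave 3 called members in fl/fl (Tbx3, Nanog and Klf5). Leaving out line 1 or line 3 of del/del at day 1 gave 4 and 5 called members in del/del, with Tbx3, Nanog, Klf2 and Klf5 in each. Klf4 in del/del was also not called without line 1 of del/del at day 5.

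Prdm14 (chromosome 1, 13113457 to 13127163, minus strand), a PR domain protein that represses FGF receptor and DNA methyltransferase genes, was the member not detected at day 8. It had 43 and 26 reads in fl/fl and 28 and 21 in del/del at day 1, 4 and 2 in fl/fl and 2 and 4 in del/del at day 5, and 0 in all 4 libraries at day 8. Corrected for depth, day 1 exceeded day 5 by 10.4-fold in fl/fl (95% interval 4.53 to 29.2) and 4.29-fold in del/del (1.84 to 12.3). Against day 8, with a floor of 3 reads over the group, day 1 was at least 12.4-fold higher in fl/fl and at least 15.8-fold higher in del/del. These intervals and floors cover counting error only. In a fit with no filter on low values, the change from day 1 to day 5 was -3.35 ± 0.92 in fl/fl (adjusted p = 0.0159) and -2.17 ± 0.92 in del/del (adjusted p = 0.105).

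**Figure D2:**
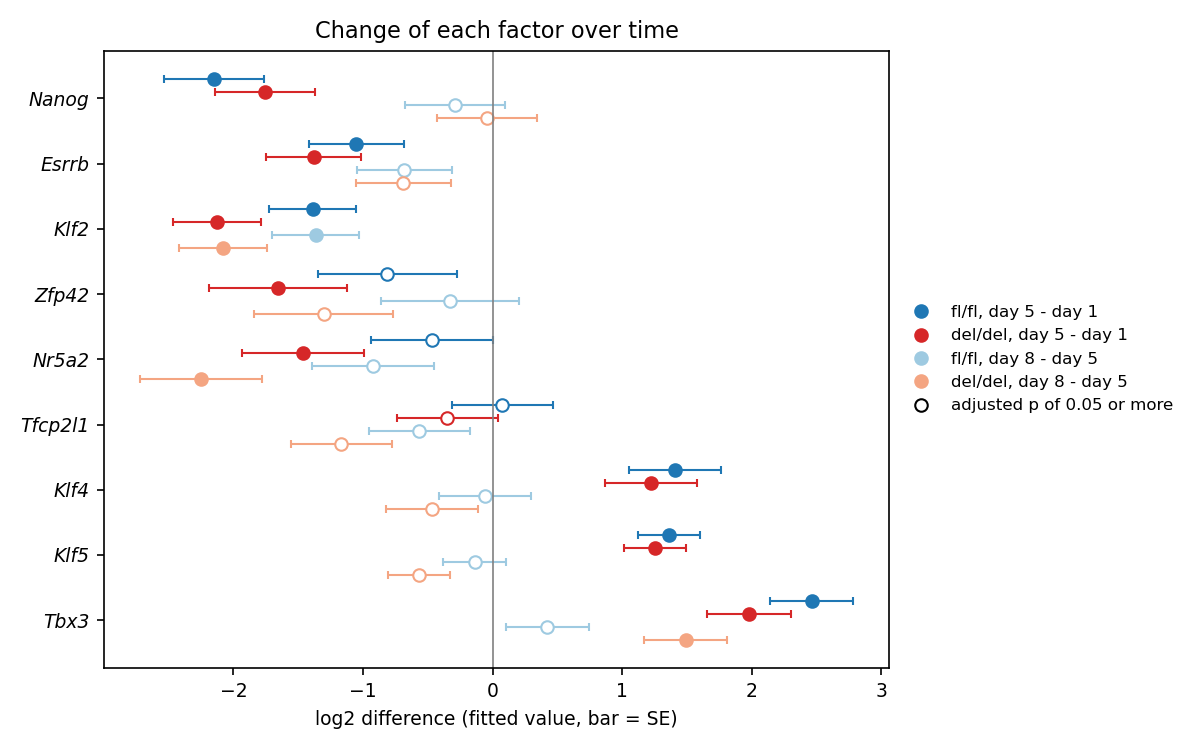
Change in relative level (log2) of the 9 tested members from day 1 to day 5 and from day 5 to day 8, by genotype (day 5 - day 1 and day 8 - day 5); points are limma estimates, bars their SE, and filled points passed an adjusted p of 0.05. From day 1 to day 5 the members lie on both sides of 0, from -2.15 for Nanog to 2.46 for Tbx3 in fl/fl.

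Genes that work with or upstream of the members gave a frame for these changes. The lists were chosen with earlier results of these data known, and some share genes, so their counts are not independent. Sall4 is in the core and naive lists, Fgf4 in the naive and FGF lists, and Etv5 in the FGF and exit lists. Of the 3 core factors, all fell from day 1 to day 5 in both genotypes; in fl/fl Sall4, a zinc finger partner of Pou5f1, was lower by 2.82-fold, Sox2 by 2.96-fold and Pou5f1 by 1.98-fold (adjusted p = 1.66e-05, 0.000297 and 0.000983). Of 25 genes of the naive state outside the set, Sall4 again among them, 17 fell in fl/fl and 20 in del/del and none rose. Fgf4, the autocrine FGF ligand of ES cells, was 70.9-fold lower and L1td1, an RNA-binding protein, 5.83-fold lower in fl/fl (adjusted p = 4.28e-06 and 1.32e-05). The median of that list in fl/fl was -1.62 against -0.47 for the members and -0.04 for all tested genes.

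Of 12 genes of the LIF pathway, 6 rose and 3 fell from day 1 to day 5 in fl/fl. Junb, an early response gene, was 3.95-fold higher and the kinase gene Jak1 2.00-fold higher, while Pim3, a Stat3 target, was 2.40-fold lower (adjusted p = 6.5e-05, 0.000134 and 0.000426). Stat3, which carries the LIF signal to Klf4, was 1.73-fold higher (adjusted p = 0.00577), and Lifr, the LIF receptor gene, 2.08-fold lower (adjusted p = 0.0226). Of 10 genes of the Wnt and Gsk3 branch, 5 rose and 1 fell in each genotype. In fl/fl Axin2, a direct Wnt target, was 16.9-fold higher, Cdx1 98.6-fold and Sp5 145-fold higher, and Tcf7l1, the repressor of Esrrb and Tfcp2l1, 2.52-fold lower (adjusted p = 2.88e-07, 8.64e-07, 4.61e-06 and 0.0017). Of 13 genes of the FGF and ERK branch, 3 rose and 6 fell in each genotype. Of 16 factors that drive cells out of the naive state, 11 fell and 2 rose in fl/fl, with Pou3f1 11.1-fold and Otx2 34-fold lower (adjusted p = 4.7e-05 and 0.000254). Of 16 genes encoding partners of Nanog and Prdm14, 9 fell and none rose, led by Tet1, a DNA demethylation enzyme, 9.11-fold lower (adjusted p = 2e-06).

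Markers of other cell types that use these factors moved over the same interval. Sums are over all listed markers, tested or not, in RPM on the centred scale. Of 14 tested trophoblast markers, 9 rose from day 1 to day 5 in fl/fl and 8 in del/del. The summed RPM of the list went from 72.5 to 94.2 at day 1 to 256 to 344 at day 5. Of 12 tested extraembryonic endoderm markers, 9 rose in fl/fl and 8 in del/del, with sums of 83.4 to 101 at day 1 and 366 to 767 at day 5. None of the 14 extraembryonic endoderm markers listed or the 15 trophoblast markers listed was at 0 reads throughout a day 5 group. Their part in the rises of Klf4, Klf5 and Tbx3 was not tested.

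From day 5 to day 8, 1 of 9 members was called in fl/fl, against 3.58% of all tested genes that fell and 3.15% that rose. Klf2 fell further, from 3.08 and 3.06 to 1.57 and 1.84, by 1.37 ± 0.34 (adjusted p = 0.039). That call was lost when any of the 6 fl/fl libraries, or either del/del library of day 1, was left out. In del/del 2 members fell and 1 rose, against 4.67% and 7.24% of all tested genes. Klf2 went from 2.69 and 1.74 to 0.59 and -0.31, and fell by 2.08 ± 0.34 (4.22-fold, adjusted p = 0.00409). Nr5a2 went from 1.61 and -0.08 to -1.24 and -1.73, with 18 and 12 reads left at day 8, and fell by 2.25 ± 0.47 (4.75-fold, adjusted p = 0.0133). Tbx3 rose again, from 3.08 and 2.62 to 4.46 and 4.21, by 1.49 ± 0.32 (2.81-fold, adjusted p = 0.0152). All day 8 libraries of del/del stood outside the range of day 5 for these 3 genes.

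Nanog had 2.55 and 3.38 on day 5 and 3.05 and 2.78 on day 8 in del/del, and the days overlapped, with a difference of -0.05 (95% interval -0.89 to 0.80, adjusted p = 0.955). The sign of that small value turns on the deposited scale (0.66). On that scale Tbx3 was the only member called in del/del over this interval, with Klf2 at -1.38 (adjusted p = 0.0963) and Nr5a2 at -1.55 (adjusted p = 0.115), and none was called in fl/fl, with Klf2 at -1.92 (adjusted p = 0.0646). Tfcp2l1 differed by -1.17 ± 0.39 (adjusted p = 0.0764) and was called when line was a term of the model (adjusted p = 0.05 after rounding). When line 3 of del/del at day 5 was left out, Tbx3 stood at 1.26 and was not called. Without line 3 of del/del at day 8, Nr5a2 (-2.01) and Tbx3 (1.62) were not called, and without line 1 of del/del at day 8 Tbx3 was not called. With line 3 of del/del at day 5 and of fl/fl at day 8 both left out, Nanog stood at 0.37 and Tbx3 at 1.26 in del/del. The other tested members then ran from -0.85 for Klf5 to -3.09 for Nr5a2. No change from day 5 to day 8 differed between genotypes at the threshold, the smallest adjusted p by limma being 0.357 for Tbx3 (1.06; unadjusted p = 0.04, the 1 member under 0.05; none by voom) against 0.00711% of all tested genes called higher and 0% lower.

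At the ES cell stage no member was called between genotypes. The del/del minus fl/fl differences at day 1 ran from -0.42 for Klf5 to 0.09 for Zfp42, with an adjusted p of 1 for all 9 by limma, none with an unadjusted p under 0.05 and none called by voom, and 0% of tested genes were called higher and 0.00711% lower. Both del/del libraries lay below both fl/fl libraries for 3 members, against 19.8% of tested genes. The 95% interval of Nanog was -0.86 to 0.84. Prdm14 had 69 reads in fl/fl and 49 in del/del, a depth-corrected ratio of 1.74 (95% interval 1.19 to 2.56, counting error only). With the spread between libraries included, the fit with no filter on low values gave -0.77 ± 0.92 and did not call it.

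At day 5 no member was called between genotypes by limma either, 1 (Klf2, -0.85) had an unadjusted p under 0.05 (0.0285), voom called none, and 0% of tested genes were called higher and 0.00711% lower. Of 9 members 8 had lower means in del/del, from -0.38 for Klf4 to -1.0 for Nr5a2, and Nanog was higher by 0.38 (adjusted p 0.597 to 0.721 over the 9). The 2 lines were unlike each other. In line 1 the differences ran from -0.62 to 0.22 with a median of -0.02, and in line 3 from -1.81 to 1.38 with a median of -1.32, where the median of all tested genes was -0.06. In line 3 the differences of all tested members except Nanog were negative, at -1.81 for Nr5a2, -1.74 for Zfp42, -1.46 for Tfcp2l1 and -1.39 for Esrrb, and Nanog was at 1.38. When line 1 of del/del was left out, so that line 3 alone stood for that group, Nr5a2 (-1.84), Klf2 (-1.33) and Esrrb (-1.28) were called (adjusted p = 0.0144, 0.0329 and 0.0237). When line 3 of del/del was left out instead, all 9 differences lay between -0.38 and 0.05. Marker sums, on the centred scale, differed in line 3 for some lists and not for others. Trophoblast markers summed to 256 RPM in del/del against 260 in fl/fl in line 3, and to 316 against 344 in line 1. ES cell markers outside the set summed to 125 against 128 in line 3 and 132 against 145 in line 1. Definitive endoderm markers summed to 53.6 against 74.2 and 64.0 against 68.0. Extraembryonic endoderm markers summed to 366 RPM in del/del against 767 in fl/fl in line 3, and to 483 against 429 in line 1. Endothelial markers summed to 7.63 against 29.7 RPM in line 3 and 19.5 against 13.1 in line 1, and germ cell markers to 28.9 against 48.2 and 45.3 against 46.7. Neuromesodermal markers were on the other side, at 222 RPM in del/del against 127 in fl/fl in line 3 and 151 against 179 in line 1, and fibroblast markers summed to 314 against 245 and 294 against 246. The part of these markers in the difference was not tested.

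At day 8, 4 of 9 members were lower in del/del (Nr5a2, Klf2, Klf5 and Tfcp2l1) and none was higher, where 7.05% of all tested genes were called lower and 7.95% higher. No member overlapped between genotypes: 7 lay below and 2, Nanog and Tbx3, above, against 30.9% and 32.1% of all tested genes. The median of the 9 differences was -0.95, against 0.02 for all tested genes.

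Nr5a2 had 0.79 and 0.90 in fl/fl and -1.24 and -1.73 in del/del, on 52 and 13 reads against 18 and 12. Both del/del libraries were far below the controls. The difference of Nr5a2 was -2.33 ± 0.47 log2 units (5.03-fold lower, adjusted p = 0.0161). Klf2 had 1.57 and 1.84 in fl/fl and 0.59 and -0.31 in del/del, a difference of -1.57 ± 0.34 (2.96-fold lower, adjusted p = 0.0186). In Klf2 the lines of del/del differed from each other by nearly as much as the nearest libraries of the 2 genotypes.

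Klf5 had 3.63 and 4.08 in fl/fl and 2.98 and 2.82 in del/del, a difference of -0.95 ± 0.24 (1.94-fold lower, adjusted p = 0.0287). Tfcp2l1 had 3.17 and 2.81 against 2.18 and 1.13, a difference of -1.34 ± 0.39 (2.53-fold lower, adjusted p = 0.0431). Zfp42 had 1.92 and 2.95 against 1.33 and 0.08, and its difference of -1.73 ± 0.53 missed the threshold (adjusted p = 0.0513).

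The remaining members were not called at day 8. Klf4 had 3.53 and 2.59 in fl/fl and 1.98 and 2.57 in del/del, where line 3 showed next to no difference (-0.79, adjusted p = 0.145). Esrrb had 3.39 and 2.75 against 2.72 and 2.14 (-0.64, adjusted p = 0.233). Nanog was the reverse of most, with 2.02 and 2.56 in fl/fl and 3.05 and 2.78 in del/del, on 122 and 41 reads against 353 and 273 (0.63, 95% interval -0.22 to 1.48, adjusted p = 0.264). Tbx3 had 3.63 and 3.83 in fl/fl and 4.46 and 4.21 in del/del, on 373 and 99 reads against 940 and 734 (0.61, 95% interval -0.11 to 1.32, adjusted p = 0.204).

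**Figure D3:**
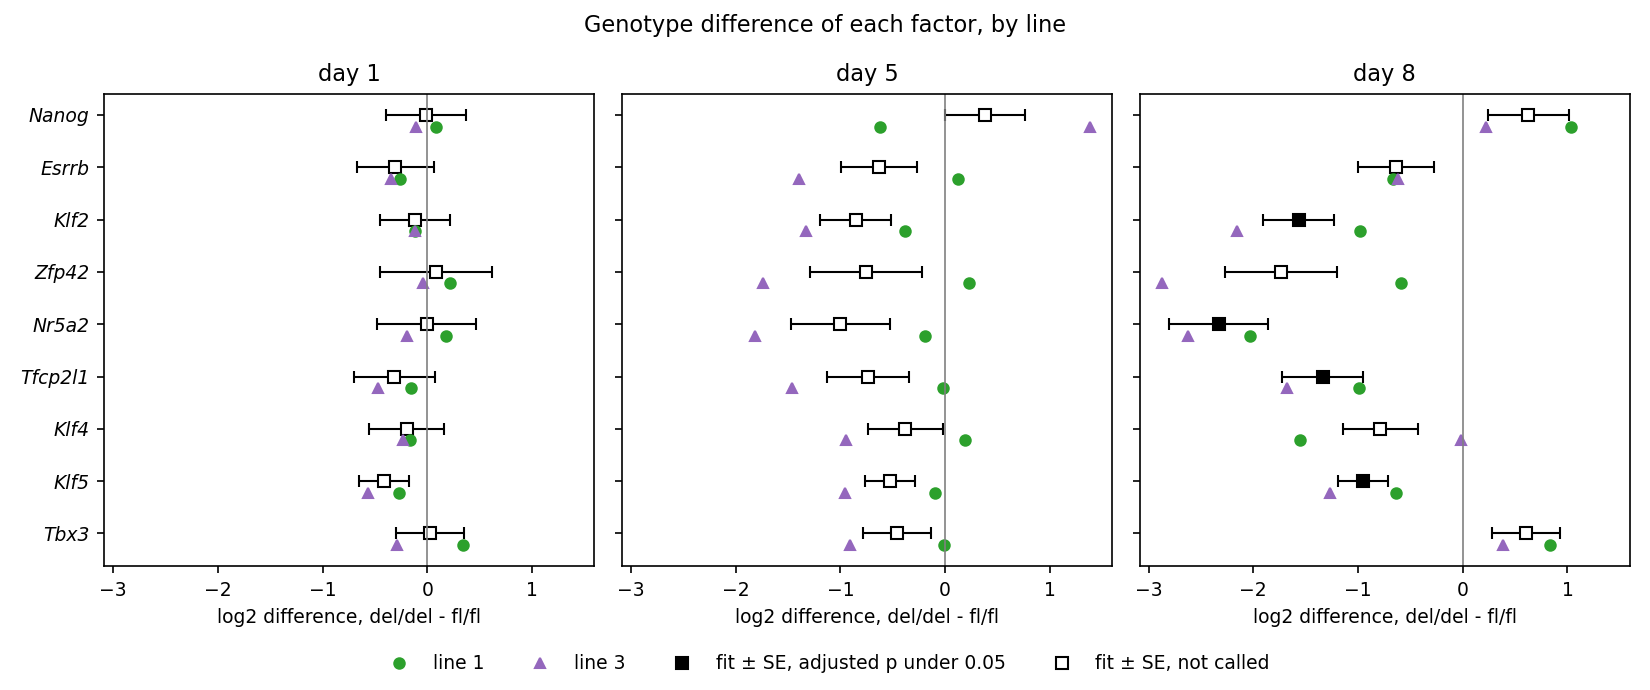
Difference in relative level (log2, del/del minus fl/fl) of the 9 tested members at day 1, day 5 and day 8; squares with bars are limma estimates with their SE, filled where the adjusted p was under 0.05, and the circles and triangles are the differences within line 1 and line 3. At day 8 Nr5a2, Klf2, Klf5 and Tfcp2l1 lie below 0 with filled squares, and Nanog and Tbx3 lie above 0 with open ones.

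These calls depended on the scale and on single libraries. On the deposited scale none of the 4 was called at day 8 (Nr5a2 -1.45, adjusted p = 0.0781; Klf2 -0.69, Tfcp2l1 -0.46 and Klf5 -0.07), Klf4 (0.09) and Esrrb (0.24) changed sign, and Nanog (1.51, adjusted p = 0.0228) and Tbx3 (1.49, adjusted p = 0.0436) were called higher. Thus in both scalings Nanog and Tbx3 had higher means and Nr5a2, Klf2, Klf5 and Tfcp2l1 lower means in del/del, and which of them passed the threshold differed. With the shallow library, line 3 of fl/fl, left out, no member was called, and Nr5a2 stood at -2.28 (adjusted p = 0.0719), Klf2 at -1.43 (adjusted p = 0.0947), Klf5 at -0.72 (adjusted p = 0.155) and Tfcp2l1 at -1.52 (adjusted p = 0.115). With line 3 of del/del at day 8 left out no member was called either, and these 4 stood at -2.09, -1.12, -0.87 and -0.81 (adjusted p = 0.137, 0.163, 0.199 and 0.315). The call of Tfcp2l1 was the least steady of the 4: it held in 3 of the 12 fits that left out 1 library, being lost without any 1 of the 4 day 1 libraries, either fl/fl library of day 5, either fl/fl library of day 8 or line 3 of del/del at day 8. It was also lost when libraries were scaled by the trimmed mean of M values (-1.23, adjusted p = 0.0567). Klf5 lost its call without line 1 of del/del at day 8 as well. Among the fits that left out 1 library, Nr5a2 and Klf2 lost theirs only without line 3 of either genotype at day 8. Leaving out a day 1 or day 5 library kept the day 8 differences unchanged and moved only the estimate of spread. A call kept in those fits is therefore no sign of a steady difference. With the shallow library and line 3 of del/del at day 5 both left out, Klf4 stood at -1.26 and Esrrb at -0.95. Within line 1 alone the 9 differences had a median of -0.66, from -2.03 to 1.03, and within line 3 a median of -1.26, from -2.87 to 0.38.

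**Figure D4:**
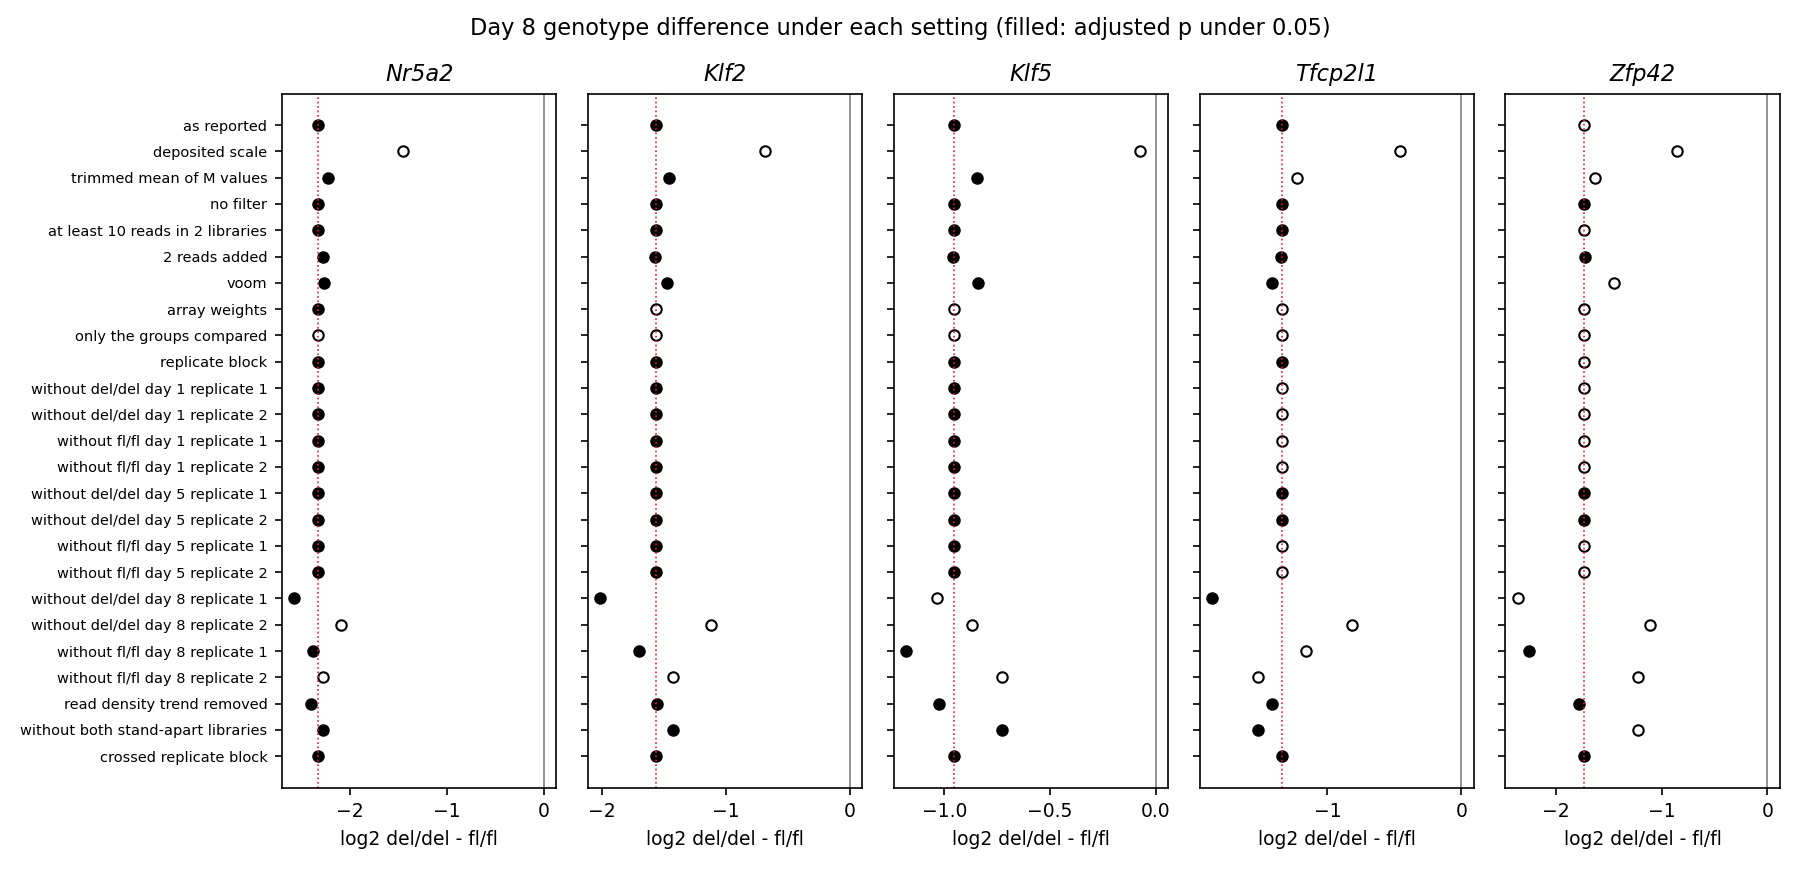
Genotype difference at day 8 (log2, del/del minus fl/fl) of Nr5a2, Klf2, Klf5, Tfcp2l1 and Zfp42 as reported and under each alternative named on the axis, where replicate 1 is line 1 and replicate 2 is line 3; each panel has its own horizontal scale, the dotted line marks the reported value, and filled points passed an adjusted p of 0.05. All 5 stay below 0 throughout, the deposited scale moves them towards 0, and leaving out replicate 2 of either genotype at day 8 leaves none of the 5 filled.

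Other genes tied to the naive state also parted at day 8 on the relative scale with all 12 libraries. Other scales and fits are not given for these lists. On the deposited scale every day 8 difference is shifted upwards by the same amount, which changed the sign of Klf4 and Esrrb. Small falls among the list genes depend on the scale in the same way. Of the 3 core factors, Sox2 was 2.69-fold lower and Pou5f1 1.81-fold lower in del/del (adjusted p = 0.00759 and 0.015). Of the 25 genes of the naive state outside the set 7 were lower and 3 higher. L1td1 was 2.86-fold, Tdh, a threonine dehydrogenase of ES cell metabolism, 4.26-fold and the DNA methylation cofactor gene Dnmt3l 2.55-fold lower, and Dppa3, a maternal and germ cell factor, 3.22-fold higher (adjusted p = 0.00711, 0.00759, 0.00963 and 0.0251). None of the 12 LIF pathway genes was called, the smallest adjusted p being 0.0515, and 2 of the 13 FGF and ERK genes, the feedback inhibitors Spry4 and Dusp6, were higher. Of the 16 factors that drive cells out of the naive state, 4 (Otx2, Grhl2, Foxd3 and Pou3f1) were lower as well and 1 (Tcf3) higher. Of the 10 genes of the Wnt and Gsk3 branch, 1 (Lef1) was higher and 1 (Gsk3b) lower. Among the family of Klf2, Klf4 and Klf5, 3 of 14 other tested Klf and Sp genes were lower and none higher, namely Klf9 by 2.89-fold, Klf6 by 2.19-fold and Klf11 by 2.44-fold (adjusted p = 0.00868, 0.0141 and 0.0315). Among 12 tested relatives of the remaining members Tbx2, the paralog of Tbx3, was 11.7-fold higher and Prdm1, a relative of Prdm14, 3.07-fold higher, while Yy1, from which Zfp42 derives, was 1.40-fold lower (adjusted p = 0.00759, 0.039 and 0.0434).

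Markers of other cell types moved with genotype at the same day. Sums are again over all listed markers, tested or not, in RPM on the centred scale. On the deposited scale each library's sum takes a single factor, set by its median log ratio. That ratio was -0.09 and -1.10 in fl/fl against 0.35 and 0.22 in del/del. With it, the ES cell, extraembryonic endoderm and definitive endoderm sums of the genotypes overlap, so those gaps depend on the centring. Of 14 tested trophoblast markers 7 were lower in del/del and none higher, and the list summed to 271 and 640 RPM in fl/fl against 148 and 103 in del/del, with Elf5 at 0 reads in del/del. Of 12 tested extraembryonic endoderm markers 4 were lower, with sums of 1319 and 1702 against 527 and 821 RPM, and Ttr was at 0 reads in del/del. Of 7 tested endothelial markers 1 was lower, with sums of 48.1 and 46.6 against 9.18 and 17.0 RPM and with Emcn and Etv2 at 0 reads in del/del. Of 6 tested definitive endoderm markers 3 were lower, with sums of 80.1 and 72.0 against 18.5 and 38.2 RPM and Cer1 at 0 reads in both genotypes. Of 8 tested germ cell markers 2 were higher, with sums of 49.0 and 55.7 against 51.2 and 43.9 RPM. ES cell markers outside the set summed to 91.7 and 111 RPM in fl/fl and 64.4 and 56.5 in del/del, with 4 of 10 lower and 1 higher. Fibroblast and neuromesodermal markers had calls on both sides. Of 11 fibroblast markers 3 (Fbln2, Thy1 and Loxl1) were higher and 1 (Fn1) lower, with a median difference of 1.81 and with sums of 707 and 977 RPM in fl/fl against 797 and 899 in del/del, which overlapped. Of 13 tested neuromesodermal markers 3 (Evx1, Fgf17 and Msgn1) were higher and 1 (Sox2) lower, with a median of 0.49 and with sums of 62.3 and 55.0 against 51.6 and 61.9 RPM, which also overlapped. In this list Wnt3a was at 0 reads in fl/fl, and no marker was at 0 throughout del/del. The part of these markers in the lower levels of Nr5a2, Klf2, Klf5 and Tfcp2l1 was not tested.

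The likeness of the members to each other and to other genes was described over the 12 libraries by Pearson's correlation of relative levels, among 12041 genes. Since the 3 days separate the libraries, each value is followed by the correlation after each day's mean was removed, and no test was made. Esrrb was most like Polr2a, the large subunit of RNA polymerase II (0.99, within days 0.97). Klf2 was most like Gse1 (0.99, within days 0.96). Nr5a2 was most like Npr1, a natriuretic peptide receptor gene (0.99, within days 0.97), Tbx3 like the kinase gene Nuak1 (0.99, within days 0.91) and Nanog like Zfp951 (0.98, within days 0.86). Zfp42 was most like Tex19.1, a germ line gene also expressed in ES cells (0.98, within days 0.95), and Klf5 like Sh3d19 (0.98, within days 0.93). Klf4 was most like Epb4.1l4b (0.97, within days 0.98) and Tfcp2l1 like Atf2 (0.97, within days 0.95).

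Within the set, Esrrb and Klf2 were nearest to each other (0.95, within days 0.80), as were Klf4 and Klf5 (0.87, within days 0.60). Nr5a2 was nearest to Klf2 (0.95, within days 0.97). Zfp42 (0.95, within days 0.92) and Tfcp2l1 (0.91, within days 0.91) were nearest to Nr5a2. Nanog and Tbx3 had no close member, their nearest being Klf2 (0.70, within days -0.51) and Klf4 (0.68, within days -0.16). Within days Esrrb was nearer to Tfcp2l1 (0.91) and Klf4 to Esrrb (0.75). With each day's mean removed, Nanog ran against every other tested member except Tbx3, with correlations of -0.49 for Zfp42 to -0.81 for Klf4, and 0.10 for Tbx3. The day 5 libraries of line 3, where Nanog was 1.38 higher and most other members lower in del/del, are among the points behind these values.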

How the data were processed

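Values were deposited as log2 RPM (reads per M reads, M being mega), per the labels. TopHat2 2.0.12, bcl2fastq and edgeR were used with build mm10, per the submitters' processing notes; the sources used here do not give the role of each. After the log was undone, each library's deposited values came in steps of 1 read (100% of genes whole, tolerance 0.02 reads; 0 reads entered as 0.9), so reads were recovered for the 12 libraries. Tests covered the 14063 of 25965 genes whose deposited log2 RPM exceeded 0 in 2 or more libraries. Each library was centred on the median log ratio to the gene means. The test was limma's moderated linear model with its trend option (limma 3.58.1, R 4.3.3) over 6 group means, with Benjamini-Hochberg adjustment across all tested genes at 0.05; the fit was tested on simulated data. Relative levels are log2 RPM on this centred scale. Exon lengths and overlaps came from GENCODE, coordinates from the deposited table, promoters from RefSeq.

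Members and gene lists were chosen with earlier results of these data known. All members and Smchd1 were named, with the most correlated gene of each member (at least 10 reads in 2 libraries) and up to 4 genes per list by smallest p, to which all members of short called sets and Stat3, Lifr and genes related to a member were added after their values were seen. Replicate numbers of the titles and line numbers of the column names were taken to mark ES lines, which would pair the genotypes. The main fit had no term for line. Deviations of same-numbered libraries correlated at 0.13, -0.15 and -0.11 at days 1, 5 and 8. Alternatives covered the scale, filter, added reads, voom, array weights, samples in the fit, the line as a block and each library left out; the read density trend, leaving out 2 libraries together and a crossed block were added after the data were seen.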

Additional observations from a re-analysis of the deposited data

How the results depend on the processing

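Of 1944 values of single members under 24 alternatives, 1760 kept direction and side of the threshold, 79 lost their call with the same direction, 27 gained one, and 78 that were uncalled changed sign; no called value changed sign. At day 8 none of the 4 members called between genotypes was called on the deposited scale, where 2 others (Nanog and Tbx3) were called higher; the count was 1 with array weights and 0 with only the groups compared in the fit. From day 1 to day 5 the 6 called in fl/fl became 3 on the deposited scale, and the 8 called in del/del became 5 there and 5 with only the groups compared. From day 5 to day 8 the 1 called in fl/fl became 0 on the deposited scale, with array weights and with only the groups compared. The 3 called in del/del over that interval became 1 on the deposited scale and 1 with only the groups compared.

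Leaving out each library in turn gave 0 to 5 members called between genotypes at day 8, 0 to 3 at day 5 and 0 at day 1. It gave 3 to 6 from day 1 to day 5 in fl/fl and 4 to 8 in del/del, 0 to 1 from day 5 to day 8 in fl/fl and 1 to 6 in del/del. Where a group was left with 1 library, that library was assumed to vary like the other groups. The share of all tested genes called in these fits is not given, so a higher count there is no result about the members. With the line as a replicate block, 4 members were called at day 8 between genotypes and 4 from day 5 to day 8 in del/del, Tfcp2l1 being added; no other call of a member changed with the block. The crossed block gave 5 members called at day 8. Planned tests with count models on the recovered reads were not run, and the trimmed mean of M values was computed directly.

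Depth limited the day 8 controls: the shallowest library had 1.51 M gene reads, with 13 reads of Nr5a2 and 25 of Klf2. The median log2 read ratio of the 2 fl/fl day 8 libraries was 1.94 for genes of 1 to 10 reads per kb. It was 2.26 for those of 30 to 100 and 1.87 for those of at least 300. Nanog and Klf2 reached 554 and 471 reads per kb at day 1. At day 8 Nr5a2 was as low as 2.03 in line 3 of del/del, and Tfcp2l1 as low as 5.19 in line 3 of fl/fl. Reads of the dense genes Eef1a1, Eef2 and Hsp90ab1 varied by 1.24-fold, 1.66-fold and 1.68-fold over the libraries, less than the gene reads per library. Whether the day 1 levels of Nanog and Klf2 were affected by their read density was not tested. With the read density trend removed 5 members were called at day 8.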
